A study of Mus musculus with 10 samples.

Results

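Exon counting bins that span a whole spliced intron were described in the cerebral cortex of mice that lack Usp7 in glutamatergic neurons. A counting bin is a stretch of annotated exon over which reads are counted, and some bins are the exact interior of an intron that other reads from the same locus splice out. The authors' spliced reads cover 32135 introns, grouped in 10838 clusters of overlapping introns, and an intron outside these could not be matched. A bin was taken when both of its ends lay within 1 bp of the ends of an intron in the table of spliced reads on the same chromosome. This rule found 878 of 458337 bins (0.192%), in 731 of 51612 genes, and 869 of them matched at both ends exactly. The rule uses positions only and no measured change. The data are total RNA, depleted of ribosomal RNA and primed with random hexamers, from 5 Usp7 cKO; Trp53+/- and 5 Usp7 WT; Trp53+/- animals aged 18 days, each library from a separate animal. Usp7 encodes a deubiquitinase. The knockout animals came from Usp7 fl/fl mice crossed with NEX-cre, a driver active in glutamatergic neurons of the forebrain, so other cells of the cortex keep the gene. Both groups are heterozygous for Trp53, and the labels do not say whether Usp7 WT animals carry Cre. The groups are called Usp7 cKO and Usp7 WT, and values are listed for replicates 1 to 5 of each group.

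An intron that stays in a transcript is said to be retained. A retained intron often holds an in-frame stop codon, and such transcripts are either kept in the nucleus or, once exported, open to nonsense-mediated decay. In neurons, retained introns are known for transcripts stored in the nucleus and spliced after a stimulus. Counts inside an intron do not separate a finished transcript that keeps the intron from RNA that is not yet spliced.

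Most bins were annotated as retained introns in GENCODE M21 on GRCm38. For 617 bins the annotated transcripts that cover the bin were of the retained-intron kind only, 91 lay in an untranslated part of a coding transcript, 65 were coding in at least 1 transcript, 29 lay in transcripts marked for nonsense-mediated decay, and the rest were other noncoding or unannotated. The authors' intron annotation called 805 of the introns annotated, 31 with a cryptic 5′ splice site and 30 with a cryptic 3′ splice site. The bins were 62 to 5758 bp wide, with a median of 250.5 bp, and their median GC content was 52.2%. There were 605 genes with 1 such bin, 107 with 2, 18 with 3, and Chrd, which encodes an extracellular antagonist of bone morphogenetic proteins, with 5. By place, 595 introns lay between coding exons, 103 before the start codon and 26 after the stop codon of their transcript, and 143 lay in noncoding transcripts. No member lies in Usp7.

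The intron sequence could be read from an annotated GENCODE M21 transcript for 872 bins. The first and last 2 bases were GT and AG in 858 introns, GC and AG in 10 and AT and AC in 2. The first 6 bases on the gene's strand were GTGAGT in 114 introns and GTAAGT in 81. ATATCC or GTATCC, the start of introns cut by the minor (U12-type) spliceosome, stood there in 7, those of Ankzf1, Mcf2l, Ciao2b, Pja1, Nr2c2ap, Selenom and Ubl5. Of 555 introns that could be read in the frame of the upstream coding exon, 475 (85.6%) held an in-frame stop codon, and 30 had none and a length that is a multiple of 3.

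The splice sites of 5 introns on which the results below turn are shown first, with 3 exon bases before and 6 intron bases after the donor boundary, and the last 20 intron bases and 3 exon bases at the acceptor. Capitals mark the GT and AG of the intron.
Glyr1 E022 donor: gtgGTgagt
Glyr1 E022 acceptor: gtttgtattattttctctAGggg
Palm E018 donor: cagGTgtgt
Palm E018 acceptor: ccccgtgcctctcgtatcAGcca
Cacna1e E036 donor: cctGTatgt
Cacna1e E036 acceptor: tgccctttcttctttgtcAGgag
Grin1 E034 donor: aagGTgagg
Grin1 E034 acceptor: ctgtgcacattattcatcAGagt
Rian E049 donor: cagGTgtgt
Rian E049 acceptor: ccctcttgtgctgaatgtAGgac

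Whole introns are shown for 4 short members called below, because their full length decides what the transcript would encode. Capitals mark the first and last 2 bases and, in all but Ulk3, the first in-frame stop codon. The Ubl5 intron (146 bp, chr9:20645260-20645405, plus strand) opens with GTATCC, and its frame first stops at codon 24, counted from the codon that holds the first intron base. The Ulk3 intron (128 bp, chr9:57593854-57593981, plus strand) has no in-frame stop. Its length is not a whole number of codons, so keeping it would shift the frame after it. The Cacnb3 intron (213 bp, chr15:98641726-98641938, plus strand) stops at codon 13, and the Camkv intron (214 bp, chr9:107945865-107946078, plus strand) at codon 2, where capitals of the donor and the stop codon run together.
Ubl5 E016: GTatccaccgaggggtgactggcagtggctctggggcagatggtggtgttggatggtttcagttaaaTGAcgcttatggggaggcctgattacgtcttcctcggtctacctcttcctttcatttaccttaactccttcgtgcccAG
Ulk3 E026: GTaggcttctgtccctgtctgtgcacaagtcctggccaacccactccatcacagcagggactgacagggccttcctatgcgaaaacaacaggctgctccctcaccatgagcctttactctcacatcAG
Cacnb3 E023: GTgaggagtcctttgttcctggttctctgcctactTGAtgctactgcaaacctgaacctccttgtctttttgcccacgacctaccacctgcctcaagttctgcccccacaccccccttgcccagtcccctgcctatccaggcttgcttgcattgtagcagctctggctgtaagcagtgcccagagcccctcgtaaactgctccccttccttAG
Camkv E011: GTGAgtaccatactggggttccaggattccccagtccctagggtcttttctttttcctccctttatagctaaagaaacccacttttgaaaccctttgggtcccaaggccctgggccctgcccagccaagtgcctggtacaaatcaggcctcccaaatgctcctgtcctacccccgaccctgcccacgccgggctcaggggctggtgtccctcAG

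Bin counts summed to 42628526 to 51797145 per library and the spliced counts used to 3388310 to 4367711. Usp7 itself was at 31.6 to 40.9 TPM in Usp7 cKO and 48.3 to 61.9 TPM in Usp7 WT libraries, without overlap. In 2 libraries the sex-linked transcripts went against the labelled sex. Usp7 cKO replicate 1, labelled male, had 116 TPM of Xist and 0.0523 TPM of Ddx3y, and Usp7 WT replicate 2, labelled female, had 0.0478 TPM of Xist and 22.8 TPM of Ddx3y. Results are therefore also given without both. The summed level of 6 glutamatergic neuron markers was 4211 to 5260 TPM in Usp7 cKO and 7412 to 8666 TPM in Usp7 WT libraries, and that of 5 microglia markers was 121 to 140 TPM in Usp7 cKO and 183 to 202 TPM in Usp7 WT libraries, with no listed marker at 0. Neurod6, the locus that drives Cre in NEX-cre mice, was at 21.5 to 26.6 TPM in Usp7 cKO and 50.1 to 54.4 TPM in Usp7 WT libraries. In bulk tissue, fewer cells of a type and less RNA per cell cannot be told apart. Neurod6 is also among the 6 glutamatergic markers. Since the labels do not say whether Usp7 WT animals carry Cre, an effect of the Cre allele on Neurod6 cannot be told apart either.

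Taken over all members tested, the intron bins held a larger part of their genes' counts in Usp7 cKO cortex. Their pooled share of the counts of their genes was 1.54, 1.61, 1.78, 1.51 and 1.74% in the Usp7 cKO libraries, against 1.51, 1.43, 1.4, 1.39 and 1.60% in the Usp7 WT libraries. Replicates 3 and 5 of Usp7 cKO were highest, replicate 4 of Usp7 cKO was level with replicate 1 of Usp7 WT, and replicate 5 of Usp7 WT was above replicates 1 and 4 of Usp7 cKO, so the groups overlapped. The mean was 1.64 ± 0.118% in Usp7 cKO and 1.47 ± 0.0881% in Usp7 WT (SD, n = 5 each), a ratio of 1.11, given as a description with no test. By the sex-linked transcripts, Usp7 cKO replicates 1, 2, 3 and 5 and Usp7 WT replicates 1 and 5 were female. Their shares were 1.54, 1.61, 1.78 and 1.74% in Usp7 cKO and 1.51 and 1.60% in Usp7 WT, which overlapped. Usp7 cKO replicate 4, with 1.51%, and Usp7 WT replicates 2, 3 and 4, with 1.43, 1.4 and 1.39%, were male. In both groups every female library lay above every male one, and the groups differ in their mix of sexes. Labelled sex as a covariate does not fully adjust for this, and the part of sex in the difference was not tested. Without the 2 libraries of discordant sex the ratio was 1.12.

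**Figure D1:**
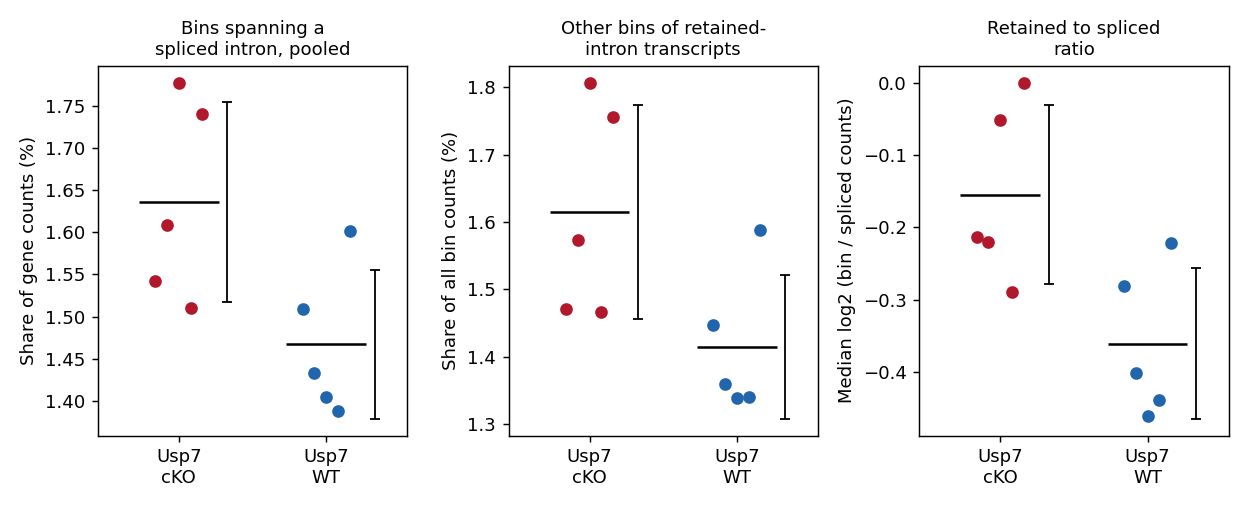
Each point is 1 library, Usp7 cKO on the left and Usp7 WT on the right of each panel, with the mean as a line and the SD as a bar beside it (n = 5 each). The left panel plots the pooled share of the bins that span a spliced intron (% of their genes' counts), the middle one the share of all bin counts in other bins of retained-intron transcripts (%), and the right one the median over members of log2 of bin counts over spliced counts. In every panel replicates 3 and 5 of Usp7 cKO and replicate 5 of Usp7 WT are the highest of their group, and the groups overlap.

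The bins around them moved in the same libraries. Other bins that lie in retained-intron transcripts only took 1.47, 1.57, 1.81, 1.47 and 1.76% of all bin counts in Usp7 cKO and 1.45, 1.36, 1.34, 1.34 and 1.59% in Usp7 WT libraries. Meg3, a long noncoding RNA kept in the nucleus, was at 854, 1104, 1694, 749 and 1252 TPM in Usp7 cKO and 740, 531, 577, 461 and 825 TPM in Usp7 WT libraries, so both were highest in the same libraries as the pooled share. Malat1, another nuclear RNA, was at 3715, 3790, 4803, 3663 and 4166 TPM in the Usp7 cKO libraries. In the Usp7 WT libraries it was at 4506, 4124, 4457, 4235 and 5475 TPM. Within each group Malat1 too was highest in the libraries with the highest pooled share. Its mean was lower in Usp7 cKO (4028 TPM) than in Usp7 WT (4559 TPM). The summed level of 3 endothelial markers was 75, 72.6, 106, 60.0 and 90.4 TPM in Usp7 cKO and 84.7, 52.9, 55.1, 59.0 and 86.2 TPM in Usp7 WT libraries. The part of nuclear RNA or of cell makeup in the pooled share was not tested.

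Of the 878 bins, 811 in 673 genes passed a mean count of at least 10 and were tested, and 67 were not. Of these 811, 789 reached a mean of 10 in both groups, 21 passed through Usp7 cKO with a mean under 10 in Usp7 WT, and 1 the reverse. The share of a bin within its gene was tested with edgeR over all 228098 bins that passed, with Benjamini-Hochberg adjustment. The share rose in Usp7 cKO in 27 members and fell in 1 at an adjusted p under 0.05, or 3.45% of those tested, where 0.43% of all bins passed (0.331% higher and 0.0986% lower). The median log2 change was 0.16, with 642 members (79.2%) above 0, while over all bins it was -0.00054, with 49.8% above 0. All 5 Usp7 cKO shares lay above all 5 Usp7 WT shares in 16 members (1.97%) and below them in 3 (0.37%), beside 0.889% and 0.76% of all bins.

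Bins outside the rule that only retained-intron transcripts cover had changes of a similar size. Such bins are set by the kind of transcript and need not be whole introns. The 15980 other bins that lie in retained-intron transcripts only had a median log2 change of 0.16, with 75.4% above 0, and 267 rose and 12 fell in the edgeR test (1.75% called). The 166433 coding bins had a median of -0.0095, with 46.1% above 0. Among the other bins of the same 731 genes, 13574 coding bins had a median of -0.013 and 2250 bins of retained-intron transcripts a median of 0.17. The difference between these kinds of bin was not tested.

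**Figure D2:**
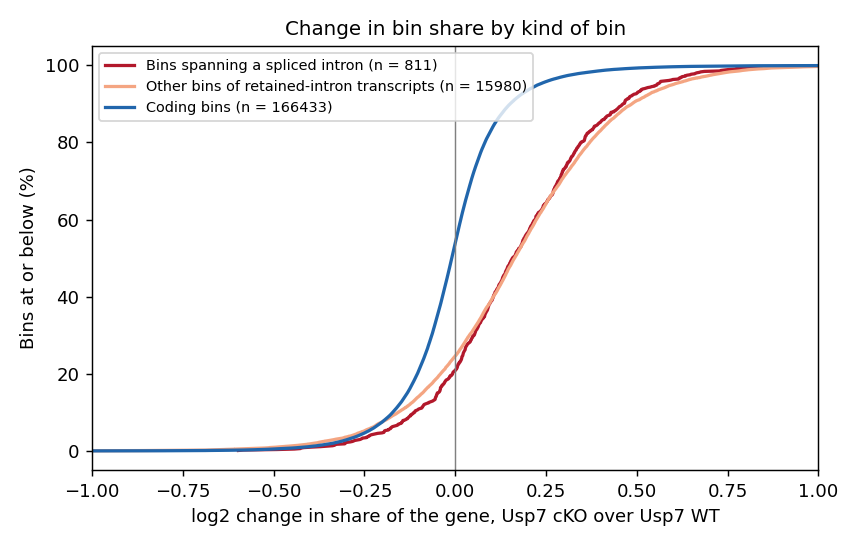
The curves give the percentage of bins (vertical axis) with a log2 change in share of the gene, Usp7 cKO over Usp7 WT, at or below the value on the horizontal axis, for 811 bins spanning a spliced intron, 15980 other bins of retained-intron transcripts and 166433 coding bins. The first 2 curves lie close together to the right of 0, with medians of 0.16 each, and that of the coding bins crosses its middle at -0.0095. A few bins lie outside the plotted range.

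The edgeR test pools the spread over all bins of a gene, so that a bin whose own libraries scatter can still pass. The shares of most called members overlapped between the groups. DESeq2, with a spread for each bin, called 24 members higher and 1 lower, 20 of the 28 among them, and limma on the log2 share, added after the data were seen, called 36 higher and 1 lower, 24 of the 28 among them. Of the 28, 9 had an adjusted p under 0.05 in the authors' deposited table. Of the 12 largest rises described next, that table called Glyr1 (adjusted p 2.74e-06) and not the other 11, among them Tcf25 (0.347), Grin1 (0.434) and Palm (0.171). Without Usp7 WT replicate 2 there were 16 calls higher, and without both libraries of discordant sex 17.

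The 12 largest rises with a mean count of at least 50 are described by what their genes encode, an order chosen after their values were seen. Glyr1 encodes a nuclear protein that binds nucleosomes. Its bin E022 (1019 bp, chr16:5048787-5049805, minus strand) is intron 1 of 15 of Glyr1-202, between coding exons, and has an in-frame stop at codon 2. The bin held 4.21, 4.18, 5.28, 4.89 and 4.83% of the gene's counts in Usp7 cKO and 3.36, 3.09, 2.42, 2.65 and 3.36% in Usp7 WT libraries. Every Usp7 cKO library lay above every Usp7 WT library. The log2 change in share was 0.66 ± 0.08 (SE; edgeR adjusted p 7.65e-09). The gene as a whole did not change by the test (log2 0.04, edgeR adjusted p 0.605). For each 100 spliced reads over the intron there were 486 reads in the bin in Usp7 cKO and 219 in Usp7 WT. These ratios are not adjusted for bin width and do not give the part of transcripts that keep the intron.

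Ehmt2 and Cbx7 also encode chromatin proteins. Ehmt2 encodes a histone methyltransferase, and its bin E048 (307 bp, chr17:34911056-34911362, plus strand; intron 22 of 26 of Ehmt2-201) has an in-frame stop at codon 56. The bin held 0.643, 0.739, 1.07, 0.748 and 0.937% of its gene in Usp7 cKO and 0.618, 0.578, 0.554, 0.358 and 0.663% in Usp7 WT libraries, with only Usp7 cKO replicate 1 inside the range of Usp7 WT. The log2 change was 0.59 ± 0.11 (SE; edgeR adjusted p 0.000885). The 2 other tested Ehmt2 members, E017 and E019, had log2 values of 0.17 and 0.22 and did not pass. Cbx7 encodes a chromodomain subunit of a polycomb repressive complex, and its bin E015 (2267 bp, chr15:79919105-79921371, minus strand; intron 4 of 5 of Cbx7-201) held 9.46, 14.4, 15.1, 10.5 and 16.1% in Usp7 cKO and 8.87, 9.56, 9.28, 7.08 and 9.96% in Usp7 WT libraries. Only Usp7 cKO replicate 1 lay within the range of Usp7 WT. The log2 change was 0.55 ± 0.12 (SE; edgeR adjusted p 0.00438), and it missed the threshold with Usp7 WT replicate 1 left out (adjusted p 0.0814) or with Usp7 cKO replicate 5 left out (0.0541). Cbx7 was the one gene among the 6 largest shares in which the bin passed the test.

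The calcium channel genes Cacna1e and Cacnb3 held 4 members, of which 2 rose. Cacna1e encodes the pore subunit of R-type calcium channels, and its bin E036 (1143 bp, chr1:154472714-154473856, minus strand) is intron 19 of 46 of Cacna1e-203, with an in-frame stop at codon 20. The bin held 0.825, 1.18, 1.13, 0.829 and 1.11% in Usp7 cKO and 0.926, 0.589, 0.534, 0.582 and 0.734% in Usp7 WT libraries. Replicate 1 of Usp7 WT lay above replicates 1 and 4 of Usp7 cKO, and the other Usp7 WT libraries lay below all of Usp7 cKO. The log2 change was 0.60 ± 0.08 (SE; edgeR adjusted p 4.98e-07), with gene and spliced reads near level (log2 -0.03 and -0.05). Its other member, E048, in intron 10, had a log2 value of 0.30 (edgeR adjusted p 0.319).

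Cacnb3 encodes an auxiliary beta subunit of the same channel family. Its bin E023, shown in full above as intron 9 of 12 of Cacnb3-206, held 0.716, 1.12, 1.22, 0.87 and 1.24% in Usp7 cKO and 0.735, 0.72, 0.687, 0.71 and 0.615% in Usp7 WT libraries. Replicate 1 of Usp7 cKO lay within the narrow range of Usp7 WT, and the other 4 lay above it. It changed by a log2 of 0.55 ± 0.12 (SE; edgeR adjusted p 0.0042), or 0.48 with an adjusted p of 0.0576 without Usp7 WT replicate 5. The intron before it, bin E021 (157 bp, chr15:98641459-98641615), had a log2 value of 0.34 (edgeR adjusted p 0.461).

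Unc13a, Grin1 and Palm were among the 12 largest rises, and Camkk2, a called member of the postsynaptic list, was not. UNC13A primes synaptic vesicles for release. Its gene's bin E054 (304 bp, chr8:71662536-71662839, minus strand) held 0.352, 0.48, 0.566, 0.32 and 0.471% of Unc13a counts in Usp7 cKO and 0.369, 0.259, 0.223, 0.23 and 0.322% in Usp7 WT libraries, with replicates 1 and 5 of Usp7 WT reaching into the range of Usp7 cKO. The log2 change in share was 0.64 ± 0.10 (SE; edgeR adjusted p 9.55e-06), while the gene fell by 0.39 on the log2 scale (edgeR adjusted p 8.36e-06).

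Grin1 encodes the subunit that every NMDA receptor contains. Its bin E034 (2022 bp, chr2:25311406-25313427, minus strand) is intron 3 of 20 of Grin1-204 with an in-frame stop at codon 4, and held 1.78, 2.74, 3.50, 1.68 and 3.05% in Usp7 cKO and 1.89, 1.67, 1.64, 1.23 and 2.05% in Usp7 WT libraries. Replicates 2, 3 and 5 of Usp7 cKO lay above all of Usp7 WT and replicates 1 and 4 within its range. The change in share, on the log2 scale, was 0.56 ± 0.08 (SE; edgeR adjusted p 6.96e-07), but limma on the log2 share gave an adjusted p of 0.129. Reads spliced over this intron fell by 0.99 on the log2 scale (edgeR adjusted p 0.00133) and the gene by 0.20 (edgeR adjusted p 0.00127). There were 631 bin reads per 100 spliced reads in Usp7 cKO and 222 in Usp7 WT, without overlap of the libraries' ratios. These ratios too are not adjusted for bin width.

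Camkk2 encodes a calcium-dependent kinase that activates other kinases. Its bin E005 (2742 bp, chr5:122734246-122736987, minus strand), the last of 16 introns of Camkk2-201, held 2.29, 2.92, 3.65, 2.60 and 3.10% in Usp7 cKO and 2.5, 1.94, 1.95, 1.60 and 2.61% in Usp7 WT libraries, which overlapped. Here the share rose (log2 0.45 ± 0.08, SE; edgeR adjusted p 0.000141) while the gene fell by 0.62 and the spliced reads by 0.69 on the log2 scale (edgeR adjusted p 5.03e-08 and 0.00152), and the bin's own level had a log2 value of -0.15 (adjusted p 0.332).

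Palm encodes paralemmin, a lipid-anchored protein of the plasma membrane. Its bin E018 (1550 bp, chr10:79815242-79816791, plus strand; intron 7 of 8 of Palm-201, and coding in another transcript) held 1.01, 1.65, 1.90, 1.20 and 1.77% in Usp7 cKO and 1.17, 0.895, 0.96, 0.71 and 1.11% in Usp7 WT libraries. Replicate 1 of Usp7 cKO lay within the range of Usp7 WT and replicate 4 just above it. Its share rose by a log2 of 0.63 ± 0.10 (SE; edgeR adjusted p 2.21e-06), and the gene fell by 0.22 (edgeR adjusted p 0.00138).

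Among the other 4 of the 12 largest rises by that rule, Tcf25, a component of the ribosome quality control complex, had a log2 change of 0.63 in bin E033. It held 0.377, 0.591, 0.859, 0.535 and 0.743% in Usp7 cKO and 0.527, 0.388, 0.405, 0.26 and 0.396% in Usp7 WT libraries, and passed in edgeR (adjusted p 9.93e-07) but not in DESeq2 (0.138) or limma (0.204). Trp53inp2, which encodes a protein of autophagy, had 0.505, 0.639, 0.871, 0.582 and 0.79% in bin E007 in Usp7 cKO and 0.416, 0.563, 0.353, 0.417 and 0.436% in Usp7 WT libraries (log2 0.62, edgeR adjusted p 0.0345). Only Usp7 cKO replicate 1 fell below the highest Usp7 WT library. That call was lost when any of Usp7 WT replicates 1, 3 and 5 or Usp7 cKO replicates 3, 4 and 5 was left out (adjusted p 0.085 to 0.227), and in DESeq2 (0.0779).

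Fgfr3, a fibroblast growth factor receptor that astrocytes express, had 1.77, 2.04, 2.57, 1.27 and 2.23% in bin E025 in Usp7 cKO and 1.42, 1.1, 1.42, 1.20 and 1.45% in Usp7 WT libraries (log2 0.56, edgeR adjusted p 0.000862). Replicate 4 of Usp7 cKO lay inside the range of Usp7 WT. Without Usp7 WT replicate 2 the adjusted p was 0.0548, and without both discordant libraries 0.262. Evi5l, which encodes a GTPase-activating protein for Rab proteins, had 1.66, 2.49, 2.56, 1.92 and 2.33% in bin E025 in Usp7 cKO and 1.46, 1.61, 1.39, 1.29 and 1.91% in Usp7 WT libraries (log2 0.52, edgeR adjusted p 0.00297, or 0.0596 without Usp7 WT replicate 1). Replicate 5 of Usp7 WT reached into the range of Usp7 cKO.

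**Figure D3:**
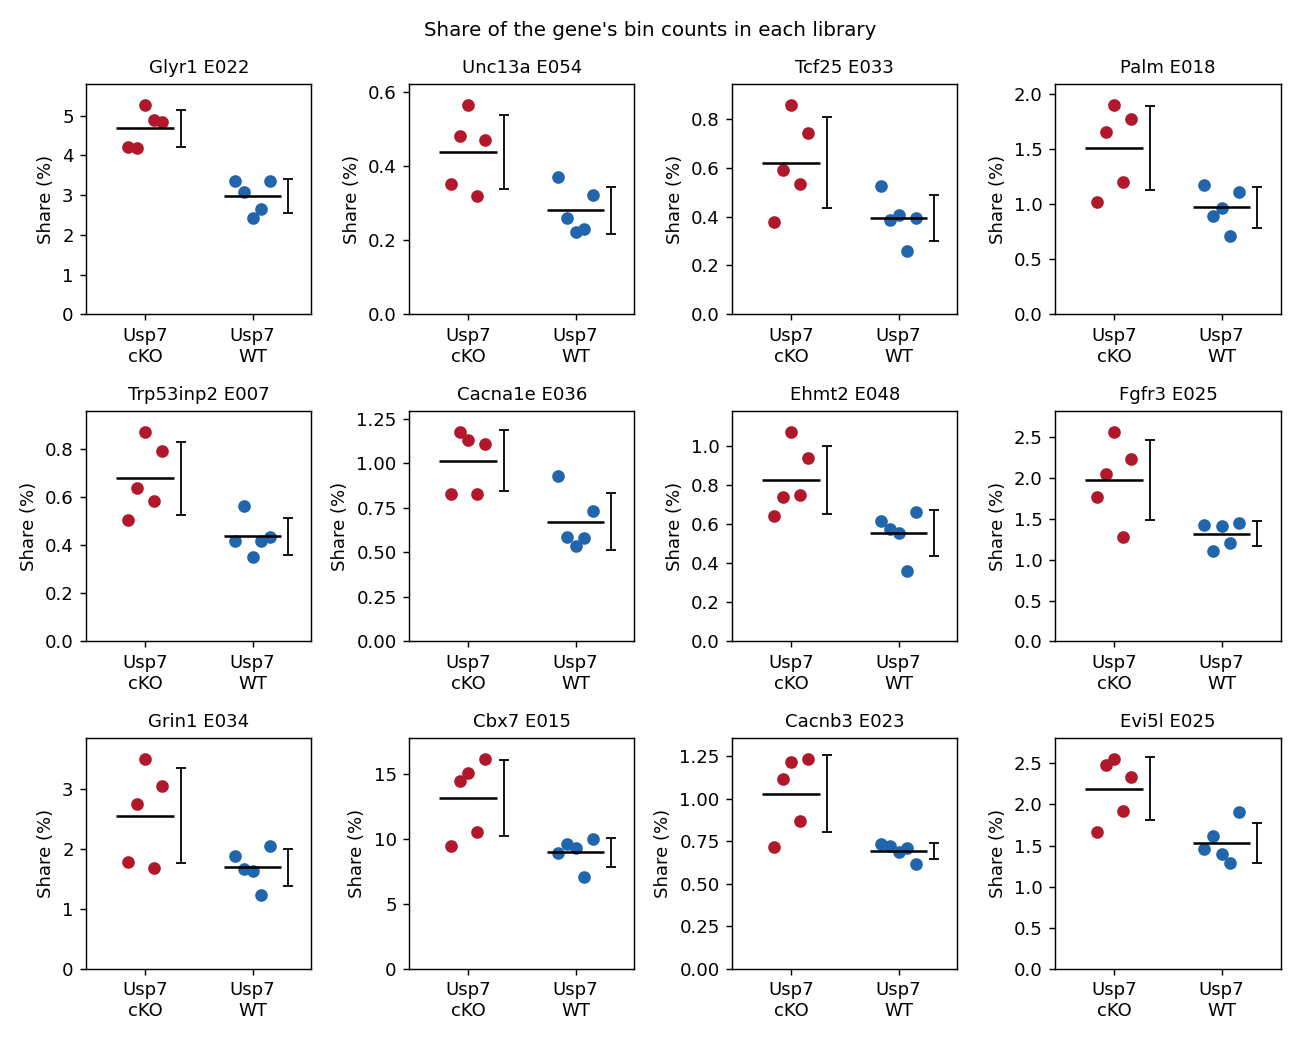
Each panel is 1 of the 12 members with the largest called rise at a mean count of at least 50, and gives the bin's share of its gene's counts (%) in each library, Usp7 cKO on the left and Usp7 WT on the right, with the mean as a line and the SD as a bar (n = 5 each). In Glyr1 the groups do not overlap, and in the other 11 panels they do.

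The largest called changes were in short introns with mean counts under 50, named here after their values were seen. Ulk3 encodes a kinase related to the kinases that start autophagy. Its bin E026, the intron shown above without an in-frame stop, had a mean count of 20 and held 1.4, 1.84, 1.71, 1.87 and 1.52% in Usp7 cKO and 1.06, 0.872, 0.801, 0.673 and 0.59% in Usp7 WT libraries. Every Usp7 cKO library lay above every Usp7 WT library. It changed by a log2 of 1.05 ± 0.23 (SE; edgeR adjusted p 0.0146), and it missed the threshold without Usp7 WT replicate 4 or 5, without Usp7 cKO replicate 4 and in DESeq2, with adjusted p-values of at most 0.104.

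Ubl5 encodes a ubiquitin-like protein that binds proteins of the spliceosome. Its bin E016, the intron with the U12-type start, had a mean count of 29.6 and held 0.937, 1.21, 0.797, 1.24 and 1.15% in Usp7 cKO and 0.694, 0.521, 0.839, 0.358 and 0.569% in Usp7 WT libraries, so that 1 library of each group lay in the range of the other. The change in share, on the log2 scale, was 0.84 ± 0.20 (SE; edgeR adjusted p 0.02), and 7 of 17 alternatives, DESeq2 among them, lost the call. Of the 5 other tested introns with this start, those of Selenom and Ciao2b had log2 values of 0.34 and 0.27, that of Pja1 0.07, and those of Mcf2l and Ankzf1 -0.04 and -0.06, none of which passed, and that of Nr2c2ap had no count.

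Further calls, also named after their values were seen, had log2 changes of 0.41 to 0.75. They were Hdgfl2 E022 and E015 (a chromatin-binding protein), Abitram (an actin-binding regulator), Lrrc73, Slc25a23 (a mitochondrial carrier), Ptprn (a protein of dense-core vesicles), Safb (a scaffold attachment factor), Atp2b2 (a plasma membrane calcium pump), Cstf2 (a subunit of the cleavage stimulation factor of polyadenylation), Ntsr2 (a neurotensin receptor) and Camkv (a kinase-like protein without activity). The Ptprn bin overlaps an exon of another gene, and its reads are uncertain. Of these, only Slc25a23 kept its call under all 18 alternatives, as did Glyr1, Palm, Unc13a, Cacna1e, Ehmt2, Camkk2 and Rian of the other called members. The authors' deposited test is not among these 18. It called Glyr1 and Rian, but not Palm, Unc13a, Cacna1e, Ehmt2 or Camkk2 (adjusted p 0.0757 to 0.257). Among the further calls, Lrrc73 lost its call under 12 of 17 alternatives, Cstf2 under 9, Abitram, Hdgfl2 E015 and Ptprn under 6, Camkv under 4, and the rest under 1 to 3. Leaving out Usp7 WT replicate 2 ended the calls of Safb, Ntsr2, Camkv, Ptprn, Hdgfl2 E015, Cstf2, Abitram, Lrrc73 and Ubl5, and Usp7 WT replicate 4 those of Ntsr2, Cstf2, Abitram, Lrrc73 and Ubl5. Usp7 WT replicate 1 ended those of Hdgfl2 E015, Cstf2 and Lrrc73, and Usp7 WT replicate 5 those of Hdgfl2 E015, Abitram and Lrrc73. Usp7 cKO replicate 3 ended those of both Hdgfl2 bins, Ptprn, Camkv and Lrrc73, and Usp7 cKO replicate 4 those of Hdgfl2 E022, Cstf2, Camkv, Abitram, Lrrc73 and Ubl5. Usp7 cKO replicate 1 ended those of Ptprn and Cstf2, replicate 2 those of Cstf2, Abitram, Lrrc73 and Ubl5, and replicate 5 those of Hdgfl2 E022, Cstf2, Abitram, Lrrc73 and Ubl5.

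The 1 fall was in Rian, an imprinted long noncoding RNA that hosts small nucleolar RNAs. Its bin E049 (1039 bp, chr12:109634355-109635393, plus strand) is intron 1 of 7 of Rian-203 and held 0.389, 0.315, 0.348, 0.289 and 0.37% in Usp7 cKO and 0.537, 0.479, 0.434, 0.541 and 0.595% in Usp7 WT libraries. Every Usp7 cKO library lay below every Usp7 WT library. The share fell by 0.60 on the log2 scale (SE 0.11; edgeR adjusted p 3.23e-05), while the gene rose by 0.93 (edgeR adjusted p 1.95e-10), the spliced reads rose by 1.04 (edgeR adjusted p 0.00155), and reads in the bin rose by 0.36 (edgeR adjusted p 0.0303). Bin E024 of Meg3, a noncoding RNA of the same imprinted region, had a log2 value of -0.11 in share (edgeR adjusted p 1), beside a gene that rose by 0.74 (edgeR adjusted p 0.004).

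Other members with large shares of their gene did not pass. Pja1, a ubiquitin ligase, had 13.1, 13.3, 13.5, 13.4 and 14.1% of its counts in bin E007 in Usp7 cKO and 12.6, 12.1, 12.5, 13.0 and 14.2% in Usp7 WT libraries, which overlapped, with a log2 value of 0.07. Snhg11 (a noncoding host of small nucleolar RNA) averaged 12.7% in Usp7 cKO and 13.0% in Usp7 WT. Abcc5 (an export pump) averaged 11.3% in Usp7 cKO and 11.2% in Usp7 WT, and Clk3 (a kinase of SR splicing factors) 10.1% in Usp7 cKO and 10.4% in Usp7 WT. None of these 4 passed the edgeR test, each with an adjusted p of 1. Over the tested members the mean share had a median of 1.14%, and 60 of them held over 5%.

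Lists of pathway genes, chosen with earlier results of these data known, hold few members each, and their counts stand beside the 3.45% of all tested members called and the 79.2% above 0. At that share, 0 calls in a list of this size is near the background and is no result about splicing factors. Of 15 tested members in 10 genes for SR proteins and their kinases, 0 rose and 0 fell, with a median log2 of -0.02. The nearest was Srsf5 E024, an SR protein gene, with 1.37, 1, 1.49, 1.21 and 1.26% in Usp7 cKO and 1.66, 1.48, 1.52, 1.88 and 2.48% in Usp7 WT libraries. Only replicate 3 of Usp7 cKO and replicate 2 of Usp7 WT crossed. The log2 value was -0.49 (edgeR adjusted p 0.092), and the call was made without Usp7 WT replicate 3 (0.0392) or Usp7 cKO replicate 3 (0.0362) and with the title number as a block (0.00175). Srsf6 E005 had -0.33, Srrm2 E033 0.32 and Clk2 E013 0.37.

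Of 12 members in 10 genes for hnRNPs and other RNA-binding regulators, 0 passed, with a median of 0.08. Celf3 E017, in a gene for a neuronal splicing regulator, had a log2 value of 0.77 (edgeR adjusted p 0.0772, and 0.031 in limma on the log2 share and 0.0288 with the title number as a block). Celf1 E030, after the stop codon, had -0.30 (edgeR adjusted p 0.325, while the authors' deposited table called it lower with an adjusted p of 0.014) with 1.48, 1.36, 1.49, 1.27 and 1.53% in Usp7 cKO all below the 1.89, 1.65, 1.84, 1.81 and 1.63% in Usp7 WT libraries. Rbm25 had 0.40 and Ccnl2 0.16. Of 7 members in 6 genes of the spliceosome core 0 passed, with a median of -0.07, among them Rnpc3 at 0.48, Sf3b1 at 0.25, Prpf40b at -0.09 and Zrsr2 at -0.11.

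The neuronal lists held 6 calls in all, and whether they differ from the other lists was not tested. Of 7 members in 5 genes of voltage-gated channels 2 rose, with a median of 0.33 and all 7 above 0. Of 6 presynaptic members in 4 genes 2 rose, Unc13a among them (median 0.10), with Erc1 at -0.24 and Slc17a7 at 0.10. Of 5 postsynaptic members in 4 genes 1 rose (Camkk2; median 0.24), with Dlgap4 at 0.24 and 0.30 and Camk2b at 0.22. Both glutamate receptor members had higher values, Grin1, which rose, and Grin2a E019, whose 0.99, 0.985, 1.09, 1.07 and 1.18% in Usp7 cKO all lay above the 0.912, 0.85, 0.671, 0.731 and 0.934% in Usp7 WT libraries. Grin2a had a log2 value of 0.38 (edgeR adjusted p 0.0824). It passed in DESeq2 (0.0157), in limma on the log2 share (0.0072) and with the title number as a block (0.0303). The authors' deposited table also called it higher (adjusted p 0.0349). Of the edgeR fits without 1 library, only that without Usp7 cKO replicate 2 passed (0.0458). Without both discordant libraries the edgeR adjusted p was 0.377. Of 7 tested members in the list of chromatin and transcription genes, which does not hold Glyr1, Ehmt2 or Cbx7, 0 passed (median 0.18, with Son at 0.20, Hdac5 at 0.18 and Hdac10 at 0.41). The members of Trp53 (0.21) and Mdm2 (-0.08), the gene for p53 and the gene for its ubiquitin ligase, did not pass, each with an edgeR adjusted p of 1.

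Reads spliced over the same introns were read from the other table. Of 867 members with a mean spliced count of at least 5, 33 rose and 18 fell in edgeR, where 4.47% of all introns passed (1.92% higher and 2.54% lower), and the median log2 was 0.04. Leaving out 1 library gave 19 to 27 rises, with 19 in the absence of Usp7 cKO replicate 3, 21 of Usp7 cKO replicates 1 or 5, 20 of Usp7 WT replicates 2 or 4 and 21 of Usp7 WT replicates 3 or 5, and 11 to 17 falls, with 11 without Usp7 cKO replicate 1. Among the 28 members called on bin share, 5 had fewer spliced reads by the test (Grin1, Camkk2, Safb, Trp53inp2 and Ptprn) and 1 had more (Rian). The largest rises of spliced reads were of 2 introns of Snhg14, a noncoding host of small nucleolar RNAs, at log2 2.17 and 1.5, and of 2 of Brd3, which encodes a bromodomain protein, at 1.76 and 1.65. Their bins had log2 changes in share of 0.22, 0.40, 0.49 and 0.53 and did not pass. As a share of its cluster of overlapping introns, none of 851 member introns was called in edgeR, where 0.117% of all introns were (0.0586% in each direction), with 25 (2.94%) at an unadjusted p under 0.05 beside 3.52% of all introns.

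**Figure D4:**
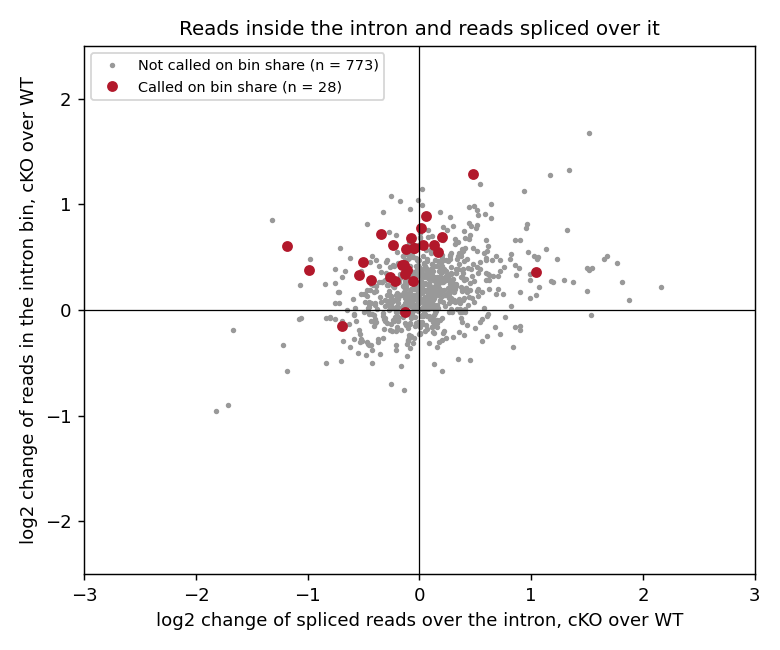
Each point is 1 of 801 members, with the log2 change of reads spliced over the intron on the horizontal axis and that of reads inside the intron bin on the vertical axis, both Usp7 cKO over Usp7 WT. Filled circles are the 28 members called on bin share, of which 18 lie above 0 for the bin and below 0 for the spliced reads, 8 above 0 for both and 2 below 0 for both.

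Set against the spliced reads, the bin reads were higher in Usp7 cKO for most members. The median over 801 members of the log2 ratio of bin to spliced counts was -0.21, -0.22, -0.05, -0.29 and 0 in the Usp7 cKO libraries, against -0.28, -0.40, -0.46, -0.44 and -0.22 in the Usp7 WT libraries. Replicates 1 and 5 of Usp7 WT lay within the range of Usp7 cKO. The ratio was higher in Usp7 cKO in 590 members (73.7%), with a median difference of 0.22, or 0.25 without the discordant libraries, and no test was made of it. Spliced counts numbered 7.95 to 8.49 per 100 bin counts in Usp7 cKO and 8.27 to 8.74 in Usp7 WT libraries. By replicate the number was 7.95, 8.37, 8.49, 8.21 and 7.98 in Usp7 cKO and 8.71, 8.37, 8.74, 8.61 and 8.27 in Usp7 WT. Its part in the difference between the groups was not tested.

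Members lay in genes that rose, fell or did not pass. Of 728 member genes tested, 100 rose and 149 fell in Usp7 cKO (edgeR, where 14% of all genes rose and 13.9% fell). The median log2 change in bin share was 0.21 for 168 members of genes that fell, 0.15 for 530 of genes not called and 0.13 for 113 of genes that rose, and 12, 12 and 4 of them were called. Taken as reads per library without regard to the gene, 136 member bins rose and 16 fell, where 8.01% of all bins rose and 7.25% fell.

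Among the members, those between coding exons had the higher values. The median log2 change in share was 0.18 for 555 introns between coding exons, 0.12 for 89 before the start codon, 0.11 for 24 after the stop codon and 0.13 for 132 in noncoding transcripts. By GC content, the bins with the least (20.8 to 43.6%) had a median of 0.09 with 63.9% above 0, and 3 further groups of about equal size, from lower to higher content, had medians of 0.15, 0.22 and 0.18 with 83.1 to 86.1% above 0. The median was 0.19 with an in-frame stop codon and 0.19 without. First introns had a median of 0.10, last ones 0.16 and the rest 0.18. The number called was 1, 3, 2 and 22 from the lowest to the highest of 4 about equal groups by mean count, 2, 3, 7 and 16 from the narrowest to the widest, and 3, 6, 16 and 3 from the lowest to the highest GC content. These are descriptions and were not tested.

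Several introns of 1 gene need not move together. Of 117 genes with at least 2 tested members, all members had a positive log2 change in 66, all a negative one in 10, and the signs differed in 41. Both tested Hdgfl2 members were called, while the 5 of Chrd ranged from -0.35 to 0.31 with none called. The 9 bins that matched with 1 bp off at an end had log2 values of -0.19 to 0.48, and 23 tested bins that missed the rule by 2 to 5 bp had -0.10 to 0.69.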

How the data were processed

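Total RNA of 10 cortices was compared as 5 Usp7 cKO against 5 Usp7 WT libraries. The exon bin and intron values are raw read counts and raw spliced-read counts deposited by the authors, per the file headers, and gene levels are TPM made by the authors. The authors' deposited bin table also holds a log2 fold change and a p-value for each bin. A mean normalized signal per bin and the score columns (usage coefficients, test statistic) in the authors' deposited tables were not used. Tools named in the submitters' processing notes are STAR 2.7.9a, SAMtools 1.10, featureCounts and Subread, with the build GRCm38. The counting strand is not given in the sources used here, so overlapping antisense genes cannot be told apart. In Usp7 WT replicate 1 all intron counts were even, and they were halved. The authors' own test of bins is compared in the closing section.

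The share of a bin in its gene and of an intron in its cluster were fitted in edgeR 4.0.16 (R 4.3.3; glmQLFit and diffSpliceDGE), and genes, spliced reads and bin levels with glmQLFTest. TMM scaling and labelled sex as a covariate were used, since the matched pairs are not named. Mean counts of at least 10 (bins, genes) or 5 (introns) and at least 2 features per gene or cluster were required. P-values are two-sided, with Benjamini-Hochberg adjustment over all features tested and a threshold of 0.05. The tests were tested on simulated data. DESeq2 1.42.0 and limma 3.58.1 were alternatives. Log2 ratios used a pseudocount of 0.5. Python 3.11.15 with pandas 2.3.3, matplotlib 3.10.9 and numpy 2.4.6 made the tables and plots.

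Members and gene lists were chosen with earlier results of these data known. Named members are the 12 largest called rises and falls (mean count of at least 50), the 6 largest shares in genes with a mean count of at least 1000, and up to 4 per list by p. Some members chosen by this rule are left out of the text.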

Additional observations from a re-analysis of the deposited data

Results flagged for a closer look

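In bin E005 of Abitram, Usp7 cKO replicate 1 held a share of 5.31%, while the other 4 Usp7 cKO libraries held 8.62 to 9.91%, a gap of 0.72 of the group's range. It was picked out as a library far from the others of its group, and chance alone does this in about 1 in 20 groups, with 62 groups examined.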

How the results depend on the processing

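The 27 rises and 1 fall in bin share became 23 to 27 rises and 1 fall with RLE scaling, DESeq2, no covariate, a mean count of at least 1 or 50, or exact matches only, and 36 and 1 with limma on the log2 share. Leaving out each library in turn gave 16 to 28 rises, with 16 without Usp7 WT replicate 2, and 1 to 2 falls, with 2 without Usp7 WT replicate 3 or Usp7 cKO replicate 3. Without both libraries of discordant sex there were 17 rises. The authors' deposited table called 13 members higher and 2 lower, 9 of the 28 among them. With the title number as a replicate block there were 33 rises and 2 falls. Same-numbered libraries of the 2 groups had correlations of -0.025 to 0.20 over 9 pairs, with a median of 0.087. The median of the other cross-group pairs was -0.058, and 7 of 10 libraries correlated best with their own number. The labels do not name the pairs, so labelled sex was kept as the covariate. Whether the title number marks litters was not tested. Calls on spliced reads without 1 library numbered 19 to 27 rises and 11 to 17 falls. The median difference of the retained to spliced ratio was 0.42 with the intron counts as deposited. No called member changed direction. The log2 value changed sign, never with a call, for Mdm2 E022 (0.04 without Usp7 WT replicate 4 or without both discordant libraries), Snhg11 E025 (0.0044 without Usp7 cKO replicate 4) and Abcc5 E050 (-0.0246 to -0.0002 without Usp7 WT replicate 4, Usp7 cKO replicate 1 or 5, or both discordant libraries). The cause of these moves was not tested. The median change in share was 0.14 to 0.16 under the alternatives that keep all libraries or leave out both of discordant sex. Gene levels and intron usage kept their counts within 1.5 times. Of the 28 calls, 22 lay in the highest of 4 groups by count and 16 in the widest of 4 groups by width, and the part of depth in this was not tested.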
